A study of Homo sapiens with 34 samples.

Results

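NKX2-5 knockdown cells were followed from day 2 to day 6 of differentiation toward cardiomyocytes, and the account below describes which genes rose and fell between these days. The members are the 4 RNA sequencing libraries of these cells at day 2 and day 6, with 2 libraries per day, out of 34 libraries of 15 groups in the series. They were chosen by their labels. The cells came from H1, an established line of human ESCs (embryonic stem cells), into which an NKX2-5 shRNA was brought with a lentivirus and puromycin selection. They were 1 line, made with the vector that lowered the transcript best in real-time PCR among those tried. Effects of viral insertion or of this hairpin on other transcripts thus cannot be told apart from those of NKX2-5. All cells received 5 µM CHIR99021, an inhibitor of GSK3 that switches on canonical WNT signalling, for the first 24 h, and 3 µM IWP2, an inhibitor of WNT secretion, from day 2 to day 5 (the sample labels give both doses in mM). The day 2 libraries were taken after the WNT pulse, and the day 6 libraries after its inhibition, before insulin was added at day 7. Libraries of the same line at days 0 and 10 are used as landmarks, and WT cells at days 2 and 6, with the same treatment and with either an empty vector or an shRNA that targets GFP, as the control line.

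NKX2-5 is a homeobox transcription factor of the heart field that acts with GATA4, TBX5 and MEF2C on genes of the contractile apparatus. ESCs exposed to WNT signals pass through a mesendoderm state, marked by TBXT, EOMES and MIXL1, from which mesoderm and definitive endoderm both arise. Inhibition of WNT after this state steers mesoderm toward cardiac progenitors, in which ISL1, NKX2-5 and sarcomere genes come on, while endoderm is marked by SOX17, FOXA2 and HNF4A and later by secreted proteins of yolk sac and liver such as AFP and the apolipoproteins.

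The values are read counts per RefSeq transcript, of which the transcript with the largest total stands for each gene, and levels are given as CPM, read counts relative to a library size scaled by TMM. Library totals ran from 23957520 counts (day 2 replicate 2) to 58178793 counts (day 2 replicate 1), so 3 counts, taken as the floor of detection, were worth 0.0541 to 0.124 CPM. Replicates of day 2 and of day 6 correlated at r = 0.993 and r = 0.994 across genes on log2(CPM + 1), where genes are not independent replicates, and they differed by more than sampling noise. The abundant structured RNAs RMRP and RPPH1 together held 25863 and 28994 CPM at day 2 but 13077 and 23159 CPM at day 6, and the part of this difference between the day 6 replicates in the results was not tested. The labels call the replicates biological and do not say how they were kept apart, so p-values measure the spread between these libraries, and floors and counting intervals cover counting error only. At day 0 the defining markers of ESCs were present, with POU5F1 at 837 and 972 CPM and NANOG at 201 and 199 CPM.

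The targeted gene stayed low. NKX2-5 (GRCh37 chr5:172659112-172662314, minus strand) had 0.108 and 0 CPM at day 2 and 1.01 and 0.773 CPM at day 6, and rose (log2 fold change 3.60 ± 1.02 SE, adjusted p = 0.021). In WT cells it had 0.196 and 0.244 CPM at day 2 and 83.4 and 50.2 CPM at day 6. The day 6 libraries of the knockdown cells thus lay above their day 2 libraries and far below those of WT cells of the same day.

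Changes from day 2 to day 6 were large and nearly even in direction. Of 17708 genes tested with edgeR's quasi-likelihood test over the 8 libraries of the line, 811 were higher at day 6 by at least 8-fold at a false discovery rate (FDR) of 1% (4.58%), and 790 were lower (4.46%). At an adjusted p under 0.05 with no fold threshold, 4188 genes rose (23.7%) and 4288 fell (24.2%). These percentages are the background for each count of genes below, where "rose" and "fell" refer to the 5% threshold and "called" to 8-fold and 1% FDR, with p-values adjusted by Benjamini-Hochberg over all genes tested. For each gene said to rise or fall, the libraries of the 2 days did not overlap. The day 10 libraries enter the estimate of the spread and agreed less with each other (r = 0.933 across genes) than those of days 2 and 6. Without them more genes passed 5% FDR, 11531 with the libraries of days 2 and 6 alone and 11159 with those of days 0, 2 and 6, beside 8476. The counts of genes not past the test thus depend on this spread. Bulk libraries do not separate fewer cells of a type from less RNA per cell. Without day 2 replicate 1, the deepest library, 533 genes were called higher and 490 lower, and without day 6 replicate 1 664 and 486. With any 1 of the 4 libraries left out, HAND2, TNNT2, KDR, RNF43, LGR5, NOTUM, NEAT1, FOS and CCNE1 no longer passed 5%, and NKX2-5, ZFP42, ALB, EPCAM and MALAT1 did not without 1 or more of them.

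The genes called higher took 0.351% and 0.353% of the counts of the day 2 libraries and 8.27% and 8.19% of those of day 6. The genes called lower went the other way, from 4.87% and 4.86% to 0.251% and 0.279%. Of the genes called higher, 239 had at most 3 counts in the day 2 libraries together, and of those called lower 160 had at most 3 at day 6. Non-coding transcripts made up 7.80% of the genes called higher and 13.0% of those called lower, beside 13.6% of all genes tested. The libraries of days 0 and 10 place these genes in time. At least 1 CPM in both day 0 libraries was found for 288 of the 811 genes called higher (35.5%) and for 577 of the 790 called lower (73.0%). At day 10 the same level was reached by 715 (88.2%) and 298 (37.7%).

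**Figure D1:**
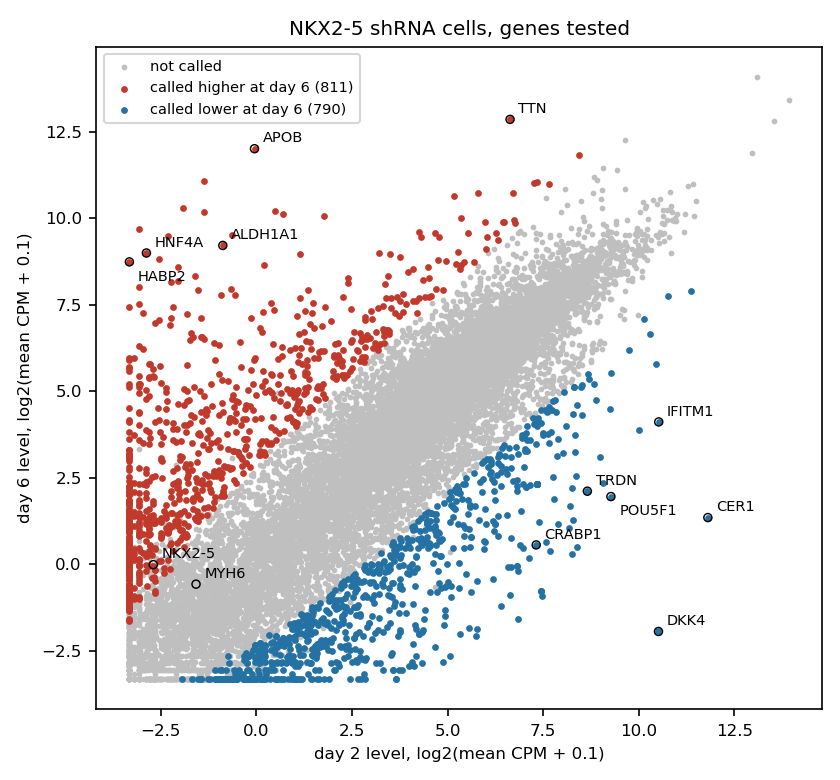
Level of each gene tested at day 2 (x axis) and day 6 (y axis) in NKX2-5 shRNA cells, each the mean of 2 libraries as log2(CPM + 0.1). The 811 genes called higher (red) and the 790 called lower (blue) lie on both sides of the diagonal, with DKK4 at the lower right and HABP2, HNF4A and APOB at the upper left.

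Many of the 15 largest rises were of genes without a count at day 2. HABP2, a plasma serine protease, had no count in either day 2 library and 435 and 422 CPM at day 6 and was at least 4794-fold higher. RFX6, a transcription factor of the gut endoderm and pancreas, had no count in either day 2 library and 189 and 158 CPM at day 6 and was at least 1946-fold higher. Both genes were thus without a count at day 2 and well above the floor in both day 6 libraries, and their folds are lower bounds against a floor of 3 counts per library. SYTL5, which encodes a synaptotagmin-like protein of vesicle traffic, went from 0.0361 and 0 CPM to 825 and 827 CPM and was 32858-fold higher (95% counting interval 9096 to 271323). This wide interval comes from a day 2 total of a few counts.

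Other genes without a day 2 count among the 15 largest rises included ANXA1 (an annexin), TDO2 and DDC (enzymes of tryptophan breakdown and of amine synthesis), SLC39A5 (a zinc transporter), FGG (fibrinogen gamma), PITX1 (a homeobox factor of the hindlimb and pituitary) and LINC03033. ANXA1 had 59.3 and 65.2 CPM at day 6 and was at least 698-fold higher. TDO2 had 61.4 and 58.4 CPM and was at least 671-fold higher. DDC had 47.3 and 55.7 CPM and was at least 577-fold higher. The bounds of these genes ran down to that of PITX1, which was at least 256-fold higher, with 25.3 and 20.5 CPM at day 6. LINC03033 reached 38.2 and 35.1 CPM. FGB, HNF4A and TTR, also among the 15, are given with their lists.

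DKK4 and CER1, secreted antagonists of the signals that form the mesendoderm, were among the largest falls. DKK4, a WNT inhibitor that WNT itself induces, had 1459.7 and 1461 CPM at day 2 and 0.0746 and 0.244 CPM at day 6, log2 fold change -12.97 ± 0.35 SE, adjusted p = 7.7e-07. CER1, which binds Nodal and BMP, had 3722 and 3429 CPM at day 2 and 3.10 and 1.79 CPM at day 6, log2 fold change -10.57 ± 0.43 SE, adjusted p = 2.9e-06. Both went from over 1000 CPM in each day 2 library to under 4 CPM in each day 6 library. IL33, an alarmin cytokine, had 13.9 and 11.0 CPM at day 2 and no count in either day 6 library and was at least 144-fold lower. OR52A1, an olfactory receptor gene, had 13.5 and 11.6 CPM at day 2 and no count in either day 6 library and was at least 145-fold lower. NMU, the neuropeptide neuromedin U, went from 31.6 and 27.2 CPM to 0 and 0.0813 CPM. These genes were at low levels at day 2, at which a complete loss is seen only as a bound. CD1D, which presents lipid antigens, was at least 72.1-fold lower. NTNG2, a membrane-anchored netrin, was at least 81.4-fold lower. TFF3, a trefoil peptide, was at least 75.8-fold lower, and OC90, an otoconin, at least 61.3-fold lower. LCK, a Src-family kinase best known from T cells, went from 13.5 and 14.4 CPM to 0 and 0.0407 CPM. The rest of the 15 were IGSF21, PRAC1, FEZF1 (a forebrain zinc finger factor), LINC00678 and PPIAP46. PPIAP46 is a pseudogene of the abundant cyclophilin gene PPIA, so its 122 and 108 CPM at day 2 and 0.187 and 0.285 CPM at day 6 are uncertain.

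Most pluripotency genes fell. On that list 1 of 14 genes tested rose, 11 fell and 2 did not pass the test, with a median log2 fold change of -4.51 beside -0.01 over all genes tested. POU5F1, a core factor of the pluripotent state, had 583 and 651 CPM at day 2 and 3.32 and 4.23 CPM at day 6, log2 fold change -7.36 ± 0.22 SE, adjusted p = 1.1e-06. NANOG, its partner, had 49.3 and 47.7 CPM at day 2 and 0.485 and 0.468 CPM at day 6, log2 fold change -6.68 ± 0.31 SE, adjusted p = 4.7e-06. SOX2, which binds with POU5F1, had 39.7 and 38.7 CPM at day 2 and 0.410 and 0.630 CPM at day 6, log2 fold change -6.19 ± 0.27 SE, adjusted p = 3.7e-06. All 3 core factors were thus above 38 CPM in each day 2 library and below 5 CPM in each day 6 library. UTF1, a chromatin factor of ESCs, was at least 15.6-fold lower, from 1.21 and 1.49 CPM. ZFP42, a zinc finger gene also used as a pluripotency marker, went the other way and rose from 115 and 104 CPM to 173 and 182 CPM (log2 fold change 0.68 ± 0.17 SE, adjusted p = 0.012). LIN28A, which blocks the maturation of let-7 miRNAs, had 1594 and 1589 CPM at day 2 and 1214 and 1210.5 CPM at day 6 (adjusted p = 0.12).

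Genes of the primitive streak and early mesoderm fell together. Of 21 genes tested, 20 fell and none rose, 16 were called lower, and the median was -5.85. TBXT, brachyury, had 33.9 and 45.6 CPM at day 2 and 0.112 and 0.183 CPM at day 6, log2 fold change -7.99 ± 0.42 SE, adjusted p = 1.8e-05. EOMES, the T-box factor of mesendoderm, had 516 and 554 CPM at day 2 and 3.88 and 6.04 CPM at day 6, log2 fold change -6.75 ± 0.45 SE, adjusted p = 2.1e-05. MIXL1, a homeobox factor of the streak, went from 78.5 and 88.1 CPM to 0.149 and 0.508 CPM. Day 6 libraries thus kept a trace of each defining factor, with more in replicate 2 than in replicate 1. The secreted factors followed: FGF4 went from 49.8 and 57.9 CPM to 0.112 and 0.163 CPM, and FGF17 from 274 and 331 CPM to 0.970 and 1.30 CPM. NODAL, the ligand that forms the streak, went from 249 and 269 CPM to 7.42 and 10.9 CPM. MESP1, a master factor of cardiac mesoderm, had 0.235 and 0.249 CPM at day 2 and 0.0746 and 0.0407 CPM at day 6 and was the member not past the test (adjusted p = 0.051). In WT cells MESP1 was at 6.11 and 6.28 CPM at day 2.

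The octamer ATGCAAAT, the motif of POU5F1 and other POU factors, was counted on both strands in RefSeq promoters, from 250 bases before to 50 after the start (build GRCh38.p14). It lay in 1.80% of all 27305 promoters and in 1.54% of those of genes tested. Of the 532 promoters matched to genes called lower, 26 held it (4.89%). Of the 605 matched to genes called higher, 6 did (0.992%), those of ALDH1A1, CDX2, COL19A1, ITIH3, KCTD12 and PHF24. Of the 9 promoters matched to the pluripotency list, 0 held it. A match describes the sequence and does not show binding.

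Hepatic and yolk sac genes had the largest median rise of the 23 lists. Of the secretory list, 22 of 25 genes tested rose, 0 fell and 3 did not pass the test, 20 were called higher, and the median was 8.52. The summed level of the list went from 295 and 332 CPM at day 2 to 13516 and 13833 CPM at day 6. APOB, the structural apolipoprotein of VLDL, had 0.902 and 0.830 CPM at day 2 and 4191 and 4088 CPM at day 6, log2 fold change 12.19 ± 0.24 SE, adjusted p = 3.3e-07. FGB, fibrinogen beta, had 0.0361 and 0.539 CPM at day 2 and 2179.8 and 2143 CPM at day 6, log2 fold change 13.35 ± 0.68 SE, adjusted p = 6.9e-06. TTR, the thyroxine carrier transthyretin, had 0.162 and 0.166 CPM at day 2 and 1226 and 1283 CPM at day 6, log2 fold change 12.87 ± 0.72 SE, adjusted p = 1e-05. Each was under 1 CPM in both day 2 libraries and above 1000 CPM in both day 6 libraries, which lay close together. AFP, alpha-fetoprotein of yolk sac and fetal liver, had 0.794 and 0.290 CPM at day 2 and 699.6 and 754 CPM at day 6, log2 fold change 10.21 ± 0.47 SE, adjusted p = 4.9e-06. APOA1, of high-density lipoprotein, reached 1120.3 and 1212 CPM. MTTP, which loads lipid onto APOB, reached 324 and 321 CPM. ALB, albumin, which liver makes later than AFP, was near the floor at day 2 and had 7.61 and 8.38 CPM at day 6 (log2 fold change 6.66 ± 1.52 SE, adjusted p = 0.0085). APOE, which many tissues make, was already at 246 and 291 CPM at day 2 and rose to 1752 and 1908 CPM. The members not past the test were APOA4 (0.485 and 0.651 CPM at day 6), APOH (0.224 and 0.264 CPM) and TF, transferrin (1.94 and 1.06 CPM).

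Promoters of AFP and of FGA, fibrinogen alpha (0.0722 and 0.166 CPM at day 2 and 169 and 177 CPM at day 6), are shown because they are the 2 of 20 promoters at hand for this list with a match to a motif of hepatic promoters, GTTAAT and, after 1 base of any kind, ATT, searched on both strands. Across all promoters 80 of 27305 held the motif (0.293%). It lay in 7 of 605 promoters of genes called higher (1.16%) and in 1 of 532 of genes called lower (0.188%). The 250 bases upstream of the start are printed 5′ to 3′ in the direction of the gene (RefSeq, GRCh38.p14), for AFP chr4:73435971-73436220, plus strand, and for FGA chr4:154590743-154590992, minus strand. Capitals mark the motif, which in the printed direction begins 132 bases before the start of AFP and, on the opposite strand, 56 bases before that of FGA.
AFP: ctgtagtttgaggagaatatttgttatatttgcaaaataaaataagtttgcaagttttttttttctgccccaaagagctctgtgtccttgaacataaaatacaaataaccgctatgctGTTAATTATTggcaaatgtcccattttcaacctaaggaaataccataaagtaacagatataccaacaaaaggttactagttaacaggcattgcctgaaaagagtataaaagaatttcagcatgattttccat
FGA: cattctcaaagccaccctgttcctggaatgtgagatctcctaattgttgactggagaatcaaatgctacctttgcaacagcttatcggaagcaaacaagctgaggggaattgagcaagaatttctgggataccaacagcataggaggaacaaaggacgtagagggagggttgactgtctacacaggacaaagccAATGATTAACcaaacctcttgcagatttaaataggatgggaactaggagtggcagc

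Endoderm transcription factors rose more often than they fell, and SOX17 and FOXA2 did not pass the test. On the list 9 of 17 genes tested rose, 2 fell and 6 did not pass the test, and the median was 2.03. HNF4A, a nuclear receptor that drives hepatocyte genes, had 0.0722 and 0 CPM at day 2 and 495 and 528 CPM at day 6, log2 fold change 13.23 ± 0.43 SE, adjusted p = 1.2e-06. FOXA1, a pioneer factor, had 0.289 and 0.581 CPM at day 2 and 40.8 and 38.4 CPM at day 6, log2 fold change 6.62 ± 0.38 SE, adjusted p = 1.2e-05. Both were under 1 CPM in each day 2 library, and their day 6 libraries lay close together. SOX17, which marks definitive and extraembryonic endoderm, had 54.0 and 65.7 CPM at day 2 and 31.6 and 38.8 CPM at day 6 (adjusted p = 0.11). FOXA2, of the node and definitive endoderm, had 74.8 and 78.2 CPM at day 2 and 89.2 and 86.7 CPM at day 6 (adjusted p = 0.67). Endoderm factors were thus present on both days. HHEX, a factor of anterior endoderm and the liver bud, fell from 68.1 and 69.7 CPM to 8.32 and 7.91 CPM. PROX1, of hepatoblasts and lymphatics, fell from 26.1 and 25.1 CPM to 4.77 and 5.04 CPM. CDX2, the hindgut factor, rose to 5.37 and 4.45 CPM, and the pancreatic factor PDX1 had no count in any of the 4 libraries.

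Many cardiac transcription factors rose. On this list 15 of 21 genes tested rose, 1 fell and 5 did not pass the test, 10 were called higher, and the median was 3.61. GATA4, which heart and endoderm share, went from 14.9 and 14.9 CPM to 187 and 181 CPM. TBX3, a repressor of the conduction system that liver bud also uses, went from 14.2 and 16.7 CPM to 360.5 and 344 CPM. Both factors are not particular to the heart. MEF2C, a factor of muscle and endothelial genes, went from 0.722 and 0.498 CPM to 26.3 and 25.3 CPM. HAND1, of the left ventricle and extraembryonic mesoderm, went from 0.0361 and 0 CPM to 19.2 and 22.1 CPM. TBX2, a repressor of chamber genes, had 4.48 and 4.23 CPM at day 6 and was at least 48.7-fold higher. Factors of the heart fields did not all follow. ISL1, of the second heart field, had 3.73 and 3.32 CPM at day 2 and 3.28 and 3.74 CPM at day 6 (adjusted p = 0.97). TBX5, of the first heart field and atria, had 0.577 and 0.664 CPM at day 2 and 0.224 and 0.163 CPM at day 6 (adjusted p = 0.25). The libraries of the days overlapped for ISL1 and lay apart by under 1 CPM for TBX5. HAND2, of the right ventricle, rose to 5.19 and 3.86 CPM, and MYOCD, the coactivator of smooth and cardiac muscle genes, to 5.07 and 5.10 CPM. IRX4, of ventricular identity, fell from 9.29 and 10.2 CPM to 2.72 and 3.23 CPM.

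Sarcomere genes rose in part, and 3 of the 4 defining markers of cardiomyocytes stayed under 3 CPM. Of 23 tested, 12 rose, 1 fell and 10 did not pass the test, with a median of 3.09. MYH6, the myosin heavy chain of early and atrial heart muscle, had 0.0541 and 0.415 CPM at day 2 and 0.671 and 0.468 CPM at day 6 (log2 fold change 1.57 ± 1.75 SE, adjusted p = 0.49). ACTN2, which crosslinks actin at the Z disc, had 0.884 and 0.664 CPM at day 2 and 0.783 and 0.285 CPM at day 6 (adjusted p = 0.59). TNNT2, cardiac troponin T, rose to 1.75 and 2.81 CPM (log2 fold change 5.14 ± 1.66 SE, adjusted p = 0.035). These 3 markers were thus under 3 CPM in each day 6 library. The other marker, MYL7, an atrial myosin light chain, rose from 0.343 and 0.332 CPM to 32.6 and 41.6 CPM, and with it the summed level of the 4 went from 1.35 and 1.45 CPM to 35.8 and 45.1 CPM. TTN, the giant spring of the sarcomere, had 109.9 and 88.2 CPM at day 2 and 7531 and 7378 CPM at day 6, log2 fold change 6.22 ± 0.23 SE, adjusted p = 2.1e-06. ACTC1, cardiac actin, rose from 2.54 and 2.70 CPM to 137 and 170.5 CPM. These genes thus rose while MYH6, ACTN2 and TNNT2 stayed low. TPM1, tropomyosin, which many cells use, rose from 114 and 111 CPM to 614 and 645 CPM. TNNI3, the adult cardiac troponin I, fell from 3.19 and 5.31 CPM to 0.0746 and 0 CPM and was 146-fold lower (95% counting interval 40.0 to 1208). The day 10 libraries of the line, which enter the estimate of the spread, differed across genes and also in heart muscle genes, with MYH6 at 3.91 and 81.6 CPM. Without them the median of the sarcomere list was 4.54 with the libraries of days 2 and 6 alone and 4.51 with those of days 0, 2 and 6.

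Genes of calcium handling and excitation fell more often than they rose. On the list 5 of 19 genes tested rose, 8 fell and 6 did not pass the test, with a median of -0.28 (-0.43 and -0.65 without the first or second day 2 replicate). RYR2, the calcium release channel of the heart, had 125 and 98.3 CPM at day 2 and 4.25 and 4.15 CPM at day 6, log2 fold change -4.75 ± 0.57 SE, adjusted p = 0.00038. TRDN, triadin, which anchors that channel, had 438 and 367 CPM at day 2 and 3.69 and 4.74 CPM at day 6, log2 fold change -6.58 ± 0.51 SE, adjusted p = 4.2e-05. CASQ2, the calcium store protein, fell from 4.44 and 2.41 CPM to 0.224 and 0.183 CPM. All 3 genes of calcium release were thus lower in both day 6 libraries and still detected there. CACNA1C, the L-type calcium channel, fell from 18.6 and 20.7 CPM to 2.13 and 2.70 CPM. NPPB, a natriuretic peptide, rose from 0.108 and 0 CPM to 40.5 and 58.8 CPM. SLN, sarcolipin, an inhibitor of the calcium pump, rose to 1.57 and 1.04 CPM from no day 2 count.

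**Figure D2:**
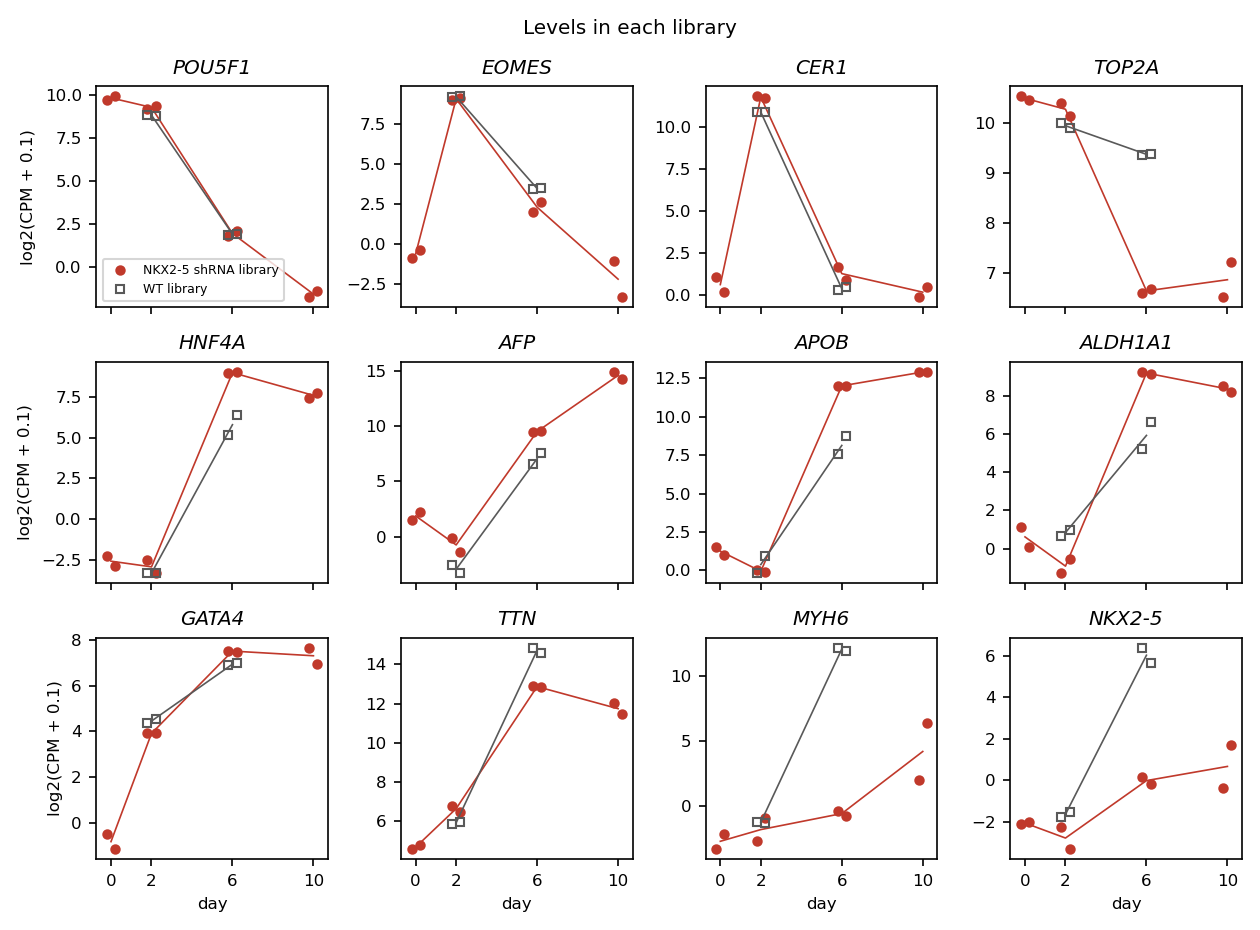
Level of 12 genes in each library as log2(CPM + 0.1) by day, for NKX2-5 shRNA cells (red points, days 0, 2, 6 and 10) and WT cells (open squares, days 2 and 6), with lines through the mean of 2 libraries. POU5F1, EOMES and CER1 fell in both lines, HNF4A, AFP, APOB and ALDH1A1 were higher at day 6 in the knockdown libraries than in WT libraries, and MYH6 and NKX2-5 were lower.

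Nearly all cell cycle genes fell. Of 25 genes tested, 24 fell and none rose, with a median of -2.40, and 4 passed the 8-fold threshold. BUB1, a kinase of the spindle checkpoint, had 488 and 453 CPM at day 2 and 23.9 and 30.1 CPM at day 6, log2 fold change -4.14 ± 0.16 SE, adjusted p = 2.2e-06. TOP2A, topoisomerase II alpha, had 1359 and 1130.5 CPM at day 2 and 97.2 and 104 CPM at day 6, log2 fold change -3.65 ± 0.24 SE, adjusted p = 2.1e-05. AURKB, a kinase of chromosome segregation, had 40.0 and 43.5 CPM at day 2 and 2.28 and 4.96 CPM at day 6. CCNB2, cyclin B2, completed the called members and had 138 and 116 CPM at day 2 and 12.2 and 13.7 CPM at day 6. All of these act in mitosis. MKI67, the antigen of proliferating cells, went from 250.2 and 235 CPM to 28.0 and 33.6 CPM, and CDK1, the mitotic kinase, from 194 and 180.4 CPM to 35.5 and 34.8 CPM. CCNE1, cyclin E1 of S phase entry, went from 30.3 and 26.7 CPM to 21.1 and 19.8 CPM. MCM2, a subunit of the replicative helicase, had 59.9 and 61.3 CPM at day 2 and 54.9 and 62.2 CPM at day 6 and was the member not past the test (adjusted p = 0.80). The summed level of the list went from 4719 and 4369 CPM to 805 and 885 CPM in the knockdown cells and from 4322 and 4241 CPM to 2609 and 2619.9 CPM in WT cells.

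**Figure D3:**
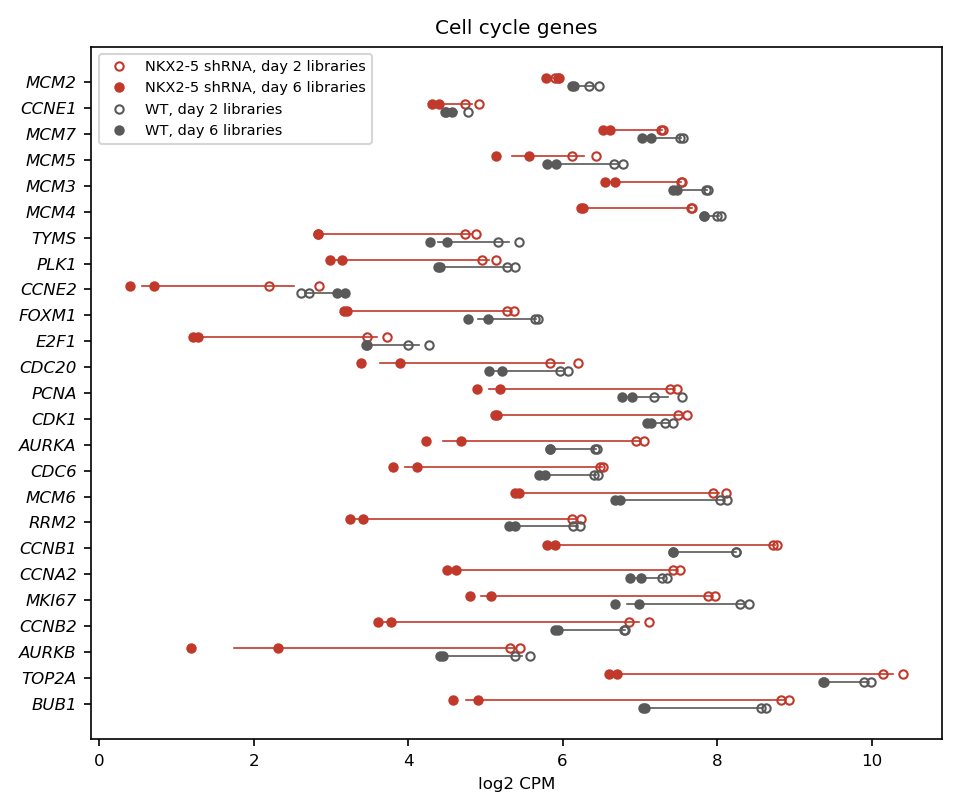
Level of the 25 cell cycle genes as log2 CPM in each library of day 2 (open) and day 6 (filled), for NKX2-5 shRNA cells (red) and WT cells (grey), with a line between the means of the days and genes ordered by the change in NKX2-5 shRNA cells. BUB1, with 23.9 and 30.1 CPM at day 6, moved farthest in NKX2-5 shRNA cells, and MCM2, with 54.9 and 62.2 CPM, moved least.

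Promoters of BUB1 and AURKB, which were also called, held the second motif given below but not the first. The promoters of CCNB2 and TOP2A are shown because, among the called cell cycle genes, they alone held both. They were searched on both strands for TTTGAA, the core of the cell cycle homology region, and for CCAAT, the NF-Y box, which lie together in many promoters of mitotic genes. Of 20 promoters of the list at hand, 6 held both (30.0%), those of CCNB2, CDC20, CDK1, MKI67, PLK1 and TOP2A, beside 6.08% of all promoters and 4.46% of those of genes tested. CCAAT lay in 17 of the list (85.0%), beside 35.7% of all promoters, and TTTGAA in 30.0% beside 15.4%. The 250 bases before the start are printed as above, for CCNB2 chr15:59104896-59105145, plus strand, and for TOP2A chr17:40417897-40418146, minus strand, with matches of either strand in capitals.
CCNB2: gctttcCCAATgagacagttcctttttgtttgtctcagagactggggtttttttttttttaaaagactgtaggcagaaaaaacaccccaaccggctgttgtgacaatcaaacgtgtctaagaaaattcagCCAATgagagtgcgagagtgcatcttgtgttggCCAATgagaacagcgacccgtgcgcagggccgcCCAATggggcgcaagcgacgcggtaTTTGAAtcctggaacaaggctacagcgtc
TOP2A: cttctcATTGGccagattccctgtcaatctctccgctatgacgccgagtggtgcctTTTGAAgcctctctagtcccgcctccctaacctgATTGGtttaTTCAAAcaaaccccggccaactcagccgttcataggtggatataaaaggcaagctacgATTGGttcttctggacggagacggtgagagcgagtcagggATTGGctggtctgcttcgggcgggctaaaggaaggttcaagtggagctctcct

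Among signalling pathways, targets and feedback genes of WNT mostly fell, on days between which IWP2 was present. On that list 2 of 15 genes tested rose, 10 fell and 3 did not pass the test, and the median was -1.39. SP5, a direct target that represses others, had 72.7 and 86.9 CPM at day 2 and 1.19 and 2.09 CPM at day 6, log2 fold change -5.58 ± 0.35 SE, adjusted p = 1.7e-05. AXIN2, the feedback scaffold read as a gauge of the pathway, fell from 49.1 and 55.8 CPM to 22.0 and 18.8 CPM (adjusted p = 0.0014). NOTUM, an enzyme that inactivates WNT proteins, fell from 2.13 and 2.66 CPM to 0.0746 and 0.0813 CPM. RNF43, which removes WNT receptors, and LGR5, an R-spondin receptor, rose instead, to 10.9 and 9.80 CPM and 1.87 and 2.79 CPM.

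BMP ligands and targets mostly rose. Of 19 genes of the pathway, 15 rose and 1 fell, with a median of 2.76. BMP6, a ligand, went from 0.0361 and 0 CPM to 174 and 194 CPM and was 7433-fold higher (95% counting interval 2057 to 61381). BMP2, another ligand, went from 31.3 and 31.0 CPM to 152 and 179.6 CPM, and BMP5 from 0.0180 and 0 CPM to 62.9 and 60.9 CPM. BMP4, the ligand of early mesoderm, had 14.5 and 15.4 CPM at day 2 and 22.0 and 22.4 CPM at day 6 (adjusted p = 0.19). The ligands thus divided. SMAD6, an inhibitory SMAD and target, had 8.08 and 9.67 CPM at day 2 and 176 and 166 CPM at day 6, log2 fold change 4.25 ± 0.23 SE, adjusted p = 9.3e-06. ID1, a target that blocks bHLH factors, had 28.1 and 30.3 CPM at day 2 and 199.6 and 203 CPM at day 6. BAMBI, a decoy receptor, had 26.4 and 25.3 CPM at day 2 and 242 and 260.4 CPM at day 6. Of the antagonists, NOG, noggin, rose from 0.108 and 0.0830 CPM to 16.3 and 17.8 CPM, FST, follistatin, rose from 14.8 and 11.9 CPM to 178 and 214 CPM, and CHRD, chordin, fell from 84.4 and 101 CPM to 7.09 and 6.24 CPM.

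Genes of retinoic acid metabolism changed in both directions. Of the list, 4 of 15 genes tested rose, 7 fell and 4 did not pass the test, with a median of -1.49 (-0.68 without day 2 replicate 1). ALDH1A1, a synthesising enzyme, had 0.307 and 0.581 CPM at day 2 and 621 and 569.7 CPM at day 6, log2 fold change 10.50 ± 0.46 SE, adjusted p = 3.9e-06. ALDH1A3, another, fell from 37.5 and 39.6 CPM to 7.16 and 11.0 CPM. ALDH1A2, the enzyme of trunk and heart mesoderm, stayed under 1 CPM in all 4 libraries. CYP26A1, which degrades retinoic acid, had 479.8 and 524 CPM at day 2 and 6.68 and 10.2 CPM at day 6, log2 fold change -5.91 ± 0.58 SE, adjusted p = 0.00014. CRABP1, a binding protein, had 148 and 170.1 CPM at day 2 and 1.42 and 1.32 CPM at day 6, log2 fold change -6.88 ± 0.27 SE, adjusted p = 2.3e-06. RARB, a receptor that retinoic acid induces, rose from 0.253 and 0.0830 CPM to 23.3 and 24.7 CPM, and RARG fell from 40.3 and 47.9 CPM to 2.57 and 1.38 CPM.

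Notch genes had no common direction: 3 of 17 genes tested rose, 6 fell and 8 did not pass the test, with a median of -0.55. HES1, a repressor that Notch induces, fell from 88.6 and 92.2 CPM to 7.83 and 9.62 CPM, while HES4 rose from 0.884 and 0.415 CPM to 14.6 and 17.7 CPM. The ligand gene DLL1 rose from 6.84 and 9.13 CPM to 33.2 and 32.5 CPM. DLL3, which inhibits Notch within the cell, fell from 8.24 and 12.8 CPM to 1.08 and 0.610 CPM, and the ligand gene JAG1 from 17.2 and 14.5 CPM to 5.93 and 6.43 CPM.

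Endothelial genes rose more often than they fell. On that list 11 of 21 genes tested rose, 3 fell and 7 did not pass the test, with a median of 1.83. CDH5, VE-cadherin, had 12.1 and 12.4 CPM at day 6 and was at least 138-fold higher. PECAM1, another junction protein, went from 0.0361 and 0 CPM to 4.48 and 5.37 CPM. CD34 went from 0 and 0.0830 CPM to 14.4 and 13.8 CPM, and TEK, the angiopoietin receptor, from 0.198 and 0.0830 CPM to 26.2 and 22.8 CPM. The marker KDR, a VEGF receptor of mesoderm and endothelium, was already at 92.4 and 77.2 CPM at day 2 and rose to 152 and 155 CPM (adjusted p = 0.046, not past 5% with any 1 of the 4 libraries left out). FLT1, another VEGF receptor, fell from 74.0 and 64.5 CPM to 24.7 and 25.4 CPM, and VWF, of mature endothelium, from 15.7 and 15.7 CPM to 2.24 and 3.03 CPM.

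Blood genes likewise rose more often than they fell. Of the list, 12 of 23 genes tested rose, 4 fell and 7 did not pass the test, with a median of 1.30 (2.81 without day 2 replicate 1). TAL1, a master factor of blood and endothelium, went from 0 and 0.0830 CPM to 11.8 and 10.2 CPM, and FLI1, of blood and vessel progenitors, from 0.108 and 0.166 CPM to 13.8 and 16.3 CPM. HBE1, the embryonic beta-like globin, had 2.04 and 1.99 CPM at day 2 and 25.8 and 25.8 CPM at day 6, log2 fold change 3.66 ± 0.16 SE, adjusted p = 4.2e-06. HBZ, the embryonic alpha-like globin, was above the floor of 3 counts in day 2 replicate 1 and had no count in either day 6 library. GATA1, which erythroid cells need, had no count in either day 2 library and 0 and 0.0813 CPM at day 6. On the blood list 8 genes were called higher and 2 lower. HBG1 and HBG2 are near-identical copies, as are HBA1 and HBA2, so their separate counts are uncertain.

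Matrix and mesenchyme genes mostly rose. On that list 15 of 26 genes tested rose, 5 fell and 6 did not pass the test, with a median of 1.45. COL3A1, a fibrillar collagen, had 0.0541 and 0.166 CPM at day 2 and 93.5 and 148 CPM at day 6, log2 fold change 10.34 ± 0.61 SE, adjusted p = 1.3e-05. LUM, the proteoglycan lumican, had 0.0722 and 0.0415 CPM at day 2 and 40.6 and 44.6 CPM at day 6, log2 fold change 9.33 ± 0.52 SE, adjusted p = 9.6e-06. VIM, vimentin, rose from 62.6 and 67.4 CPM to 660.1 and 752 CPM, and FN1, fibronectin, from 462 and 439 CPM to 2084 and 2611 CPM. Collagens moved both ways, since COL5A2 fell from 138 and 126 CPM to 18.5 and 22.0 CPM. FOXC1, a factor of paraxial and cardiac mesoderm, fell from 61.0 and 64.4 CPM to 2.69 and 3.21 CPM.

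Of the smooth muscle list, 5 of 12 genes tested rose, 1 fell and 6 did not pass the test, with a median of 0.48. ACTA2, smooth muscle actin, rose from 0.0361 and 0.207 CPM to 15.2 and 18.7 CPM, and CALD1, caldesmon, from 114 and 99.2 CPM to 997 and 989 CPM. MYH11, which defines mature smooth muscle, had 0.361 and 1.04 CPM at day 2 and 0.895 and 1.26 CPM at day 6 (adjusted p = 0.41). Of the epicardial and mesothelial list, 4 of 9 genes tested rose, 1 fell and 4 did not pass the test, with a median of 1.21. BNC1, a mesothelial zinc finger gene, rose to 3.73 and 3.60 CPM. WT1, the defining factor of epicardium, was too low to be tested, with no count in either day 2 library and 0 and 0.0407 CPM at day 6.

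Epithelial genes rose more often than they fell. On the list 12 of 19 genes tested rose, 4 fell and 3 did not pass the test, with a median of 0.86. KRT19, a keratin of simple epithelia, had 32.3 and 39.3 CPM at day 2 and 1547 and 1648 CPM at day 6, log2 fold change 5.46 ± 0.28 SE, adjusted p = 7.6e-06. CLDN4, a tight junction protein, rose from 4.58 and 4.73 CPM to 42.7 and 46.3 CPM. The marker EPCAM rose from 208 and 189.7 CPM to 344 and 366 CPM. The other marker, CDH1, E-cadherin, fell from 164 and 172 CPM to 81.5 and 74.6 CPM, and CDH3, P-cadherin, from 94.3 and 109 CPM to 22.7 and 31.3 CPM.

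Neural genes fell or did not pass the test. Of 15 tested, 8 fell, none rose and 7 did not pass, with a median of -1.34. The summed level of the list went from 830 and 872 CPM at day 2 to 164 and 183 CPM at day 6. OTX2, of epiblast, anterior mesendoderm and forebrain, had 359.5 and 356 CPM at day 2 and 33.0 and 35.9 CPM at day 6. FOXD3, of pluripotent and neural crest cells, fell from 11.4 and 15.3 CPM to 0.0746 and 0.264 CPM. Neither gene is thus particular to neural cells. The neural markers PAX6 and SOX1 were under 2 CPM in each of the 4 libraries, PAX6 with 1.15 and 0.249 CPM at day 2 and 0.298 and 0.468 CPM at day 6 (adjusted p = 0.23).

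Of 42 HOX and CDX genes, which pattern the body axis, 12 had enough counts to be tested, of which 8 rose and 3 fell. HOXB6 had 1.72 and 2.30 CPM at day 6 and was at least 22.5-fold higher. HOXB2 rose to 2.76 and 3.25 CPM, HOXB3 to 2.72 and 2.07 CPM and HOXB4 to 1.83 and 1.55 CPM. HOXB13, the most posterior gene of its cluster, fell to 0.0746 and 0.0813 CPM (log2 fold change -4.67 ± 0.83 SE, adjusted p = 0.0027). CDX4, of posterior mesoderm, was at least 24.3-fold lower, from 1.88 and 2.32 CPM.

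Among interferon-stimulated genes 3 of 12 fell and none rose, with a median of -0.39. IFITM1, which pluripotent cells also express, had 1457 and 1478 CPM at day 2 and 16.1 and 18.3 CPM at day 6, log2 fold change -6.43 ± 0.37 SE, adjusted p = 1.2e-05. IFIT2 fell from 17.9 and 15.8 CPM to 0.298 and 0.407 CPM. Of stress genes and p53 targets, 8 of 16 genes tested rose, 1 fell and 7 did not pass the test, with a median of 0.77. GDF15, a stress cytokine, rose from 0.902 and 0.415 CPM to 7.54 and 9.39 CPM. DDIT3, of the unfolded protein response, rose from 7.32 and 9.38 CPM to 50.1 and 62.5 CPM, and ASNS, asparagine synthetase, from 49.4 and 42.8 CPM to 186 and 219.7 CPM. The p53 target CDKN1A had 2.29 and 3.32 CPM at day 2 and 4.81 and 6.06 CPM at day 6 (adjusted p = 0.12). FOS, an immediate early gene, fell from 16.1 and 15.5 CPM to 2.57 and 3.78 CPM. Of 5 structured and nuclear RNAs tested, 2 rose and none fell, with a median of -0.53. MALAT1, a nuclear speckle RNA, rose from 9569 and 7958 CPM to 17378 and 17416 CPM, and NEAT1, of paraspeckles, from 65.2 and 65.8 CPM to 139.7 and 119.9 CPM. RMRP had 11234 and 12493 CPM at day 2 and 4754 and 9661 CPM at day 6 (adjusted p = 0.073).

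**Figure D4:**
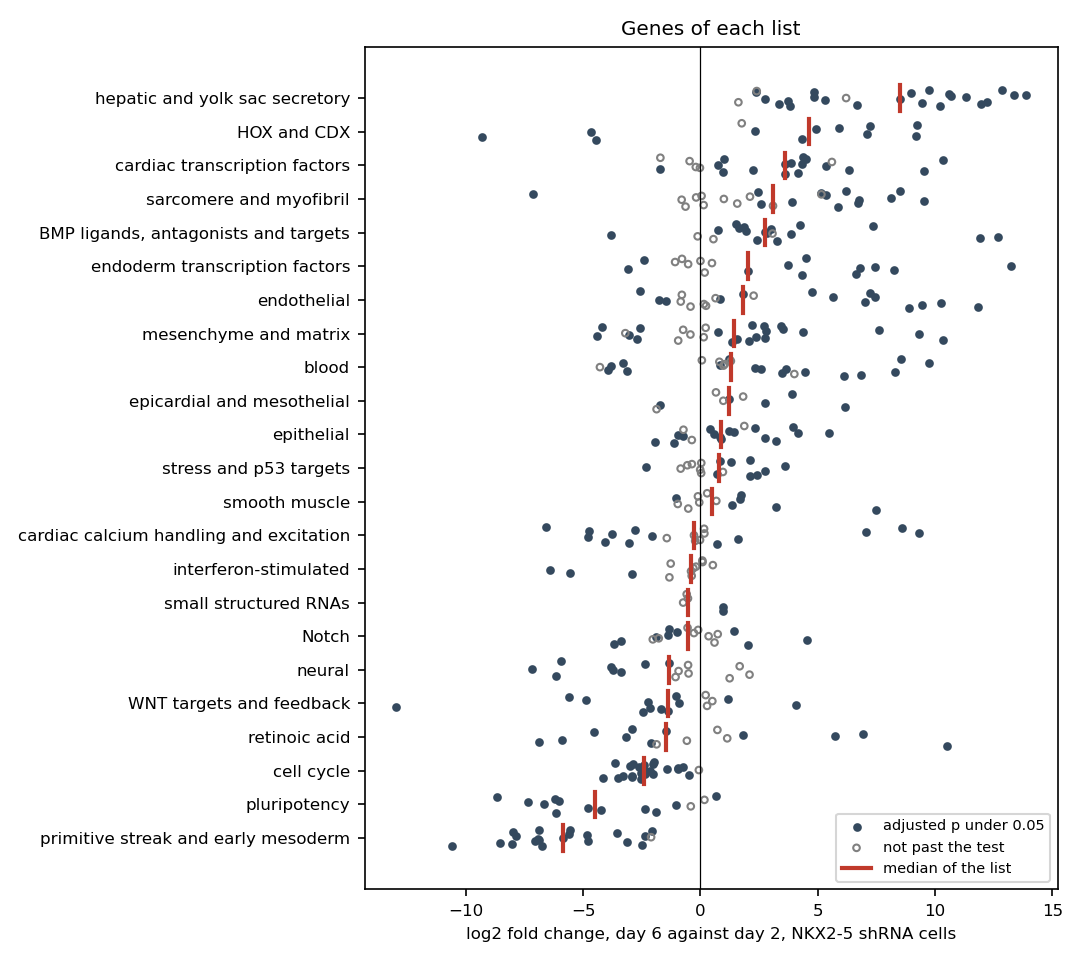
Log2 fold change from day 2 to day 6 in NKX2-5 shRNA cells of every gene tested on the 23 lists, with filled points for an adjusted p under 0.05, open points for genes not past the test and a red bar at the median of each list. Medians ran from -5.85 for the primitive streak list to 8.52 for the hepatic and yolk sac list.

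The change from day 2 to day 6 was then set against that of WT cells, to ask which changes differed between the lines. The difference was tested as an interaction over the 16 libraries of days 2 and 6, which include ZEB2 shRNA and ZNF503 shRNA cells for the estimate of the spread. Of 17358 genes, 207 had a change that was higher in NKX2-5 shRNA cells by at least 8-fold at 1% FDR (1.19%), and 449 a lower change (2.59%). At an adjusted p under 0.05, 3852 genes had the higher change in the knockdown cells (22.2%) and 4136 the lower one (23.8%). Without scaling of the library sizes the median of all genes moved from -0.04 to 0.14 on the log2 scale, and the genes past 5% split into 4784 higher and 3134 lower. Fewer genes were called higher without WT day 6 replicate 1 and more without replicate 2, so this count depended on which WT day 6 library was kept. WT day 6 replicate 2 held more hepatic and yolk sac RNA than replicate 1, with list sums of 1206 and 2149.5 CPM for replicates 1 and 2. Both were far below the 13516 and 13833 CPM of the knockdown cells. The part of this difference between the WT replicates in the counts was not tested.

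Heart muscle genes were among those with the most negative interactions. Of 25 sarcomere genes tested, 17 had a lower change in the knockdown cells at 5% FDR and none a higher one. MYH6, under 1 CPM in knockdown cells at day 6, was at 4578 and 3930.3 CPM in WT cells (interaction -12.00 ± 1.43 SE on the log2 scale, adjusted p = 4e-06). TTN rose in both lines and reached 29669 and 24611 CPM in WT cells (interaction -2.60 ± 0.17, adjusted p = 7.5e-09). RYR2, which fell in knockdown cells, had 74.0 and 68.7 CPM at day 2 and 709 and 486 CPM at day 6 in WT cells (interaction -7.80 ± 0.27, adjusted p = 2.1e-12). The 2 lines thus lay far apart in these genes at day 6. ISL1 was at 185 and 146 CPM in WT cells at day 6 (interaction -6.31 ± 0.27). The interaction was -7.68 ± 0.76 for TBX5, -6.41 ± 0.52 for HAND2 and -8.07 ± 0.84 for MYOCD. Of 22 cardiac transcription factors tested, 9 had a lower change, 5 a higher one and 8 did not pass the test. Of 12 smooth muscle genes 8 had a lower and 1 a higher change, and of 25 mesenchyme and matrix genes 12 a lower and 4 a higher one.

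Among the 10 most negative called genes were PPP1R3A (a glycogen-targeting phosphatase subunit of muscle), FSD2, CKM (muscle creatine kinase), MYBPC3 (cardiac myosin-binding protein C), CYSLTR2 (a leukotriene receptor), DNAJC5G, SMOC1 and NTRK2 (a neurotrophin receptor). They were under 1 CPM in each of the 4 knockdown libraries. Their WT day 6 levels ran from 5.24 and 5.51 CPM for DNAJC5G to 219 and 207 CPM for MYBPC3, and with so few counts at day 2 the size of the interaction is not determined. HPSE2, heparanase 2, fell from 2.71 and 2.61 CPM to no count in the knockdown cells and reached 20.3 and 15.3 CPM in WT cells.

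**Figure D5:**
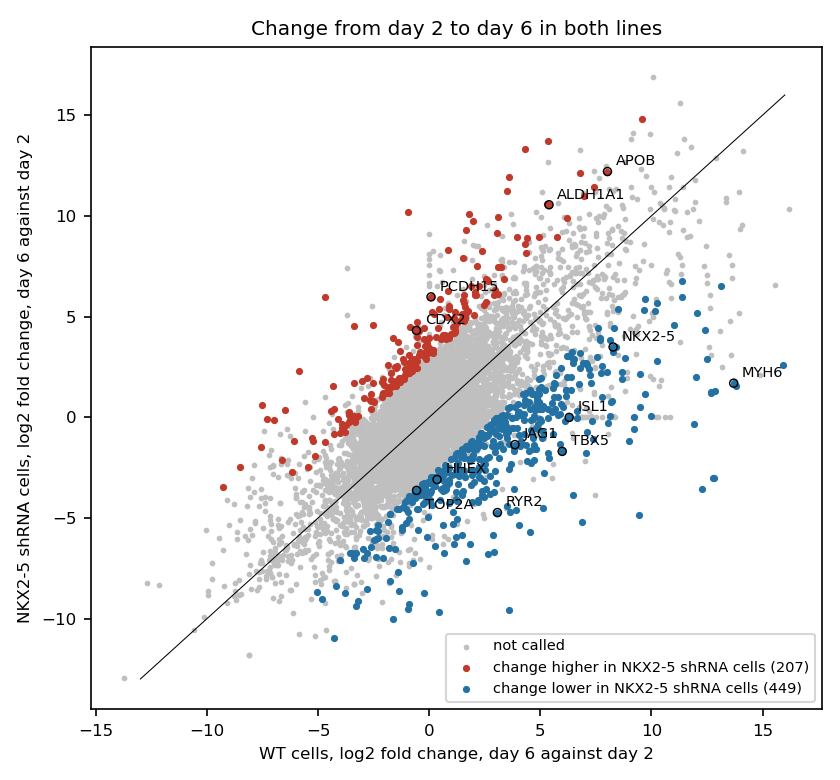
Log2 fold change from day 2 to day 6 in WT cells (x axis) and NKX2-5 shRNA cells (y axis) for each gene tested, with the line of equal change. The 449 genes with a lower change in NKX2-5 shRNA cells (blue) include MYH6, RYR2, ISL1 and TBX5, and the 207 with a higher change (red) include APOB, ALDH1A1 and CDX2.

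Endoderm and epithelial genes more often had the higher change in the knockdown cells. Of 17 endoderm factors tested, 10 had a higher and 2 a lower change at 5% FDR. Of 19 epithelial genes, 13 had a higher and 3 a lower change, beside 22.2% and 23.8% of all genes. Of 23 hepatic and yolk sac genes, 6 had a higher change, 0 a lower one and 17 did not pass the test. The share of this list with a higher change was thus near that of all genes, while its median interaction was 1.67. Members with few day 2 counts had wide spreads, with an SE of 1.74 for AFP and 3.04 for ALB. Such members can hardly pass the test, so the share does not show that the lines changed alike. APOB reached 188 and 423 CPM in WT cells (interaction 4.18 ± 0.70, adjusted p = 0.00012). WT cells thus also made this transcript, at a lower level. HNF4A and AFP were at 36.2 and 85.3 CPM and 94.1 and 187 CPM in WT cells at day 6, and their day 2 counts were too few for the interaction to be determined. SOX17 went from 54.4 and 57.7 CPM to 5.41 and 7.54 CPM in WT cells (interaction 2.33 ± 0.30, adjusted p = 1.1e-05). HHEX and PROX1 went against the list, with interactions of -3.45 ± 0.24 and -3.62 ± 0.23, and were at 53.1 and 70.9 CPM and 61.2 and 52.0 CPM in WT cells at day 6. The interaction was 5.16 ± 0.80 for ALDH1A1, 4.89 ± 0.99 for CDX2 and 3.27 ± 0.24 for CLDN4.

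Among the most positive called genes with enough counts to be sized were PCDH15, a protocadherin (5.89 ± 0.51), AMN, a partner of the uptake receptor cubilin (5.85 ± 0.98), and IL6R, an interleukin receptor (5.39 ± 0.62). PCDH15 reached 67.9 and 50.9 CPM in the knockdown cells and had 0.980 and 1.52 CPM at day 2 and 0.773 and 1.63 CPM at day 6 in WT cells. CD163, a scavenger receptor, had no day 2 count in knockdown cells, where it was at least 156-fold higher at day 6, and reached 1.16 and 2.90 CPM in WT cells. APLN, the peptide apelin, had 7.70 and 9.21 CPM at day 2 and 3.58 and 2.50 CPM at day 6 in knockdown cells (adjusted p = 0.085) and 5.62 and 7.44 CPM at day 2 and 0 and 0.0479 CPM at day 6 in WT cells. DPEP1, a dipeptidase, reached 29.0 and 28.9 CPM in knockdown and 1.03 and 2.04 CPM in WT cells. NPY4R, a neuropeptide Y receptor, reached 8.17 and 8.68 CPM and 0.601 and 1.32 CPM. SLC39A5 and LINC03033, among the largest rises above, reached 2.71 and 9.29 CPM and 2.58 and 4.07 CPM in WT cells. For these 6 genes too few counts in a group leave the size of the interaction undetermined.

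Cell cycle genes fell farther in the knockdown cells than in WT cells. Of 25, 21 had a lower change at 5% FDR and none a higher one, with a median interaction of -1.68 beside -0.04 over all genes. TOP2A had 1020.2 and 954 CPM at day 2 and 659.9 and 669 CPM at day 6 in WT cells (interaction -3.06 ± 0.16, adjusted p = 4.1e-10). The interaction was -2.58 ± 0.16 for BUB1 and -2.41 ± 0.14 for CCNB2. On the primitive streak list 15 of 21 genes did not pass the interaction test. FGF8, of the streak and the cardiac crescent, was the called member, with 2.83 and 3.11 CPM at day 2 and 0.149 and 0.488 CPM at day 6 in knockdown cells and 6.44 and 3.54 CPM at day 2 and 30.2 and 19.6 CPM at day 6 in WT cells (interaction -5.32 ± 0.53, adjusted p = 5.9e-07). JAG1 was at 380.0 and 250.5 CPM in WT cells at day 6 (interaction -5.22 ± 0.31). The 17 Notch genes tested were split, with 5 higher and 5 lower changes in the knockdown cells at 5% FDR. IFIT1, an interferon-stimulated gene, was at 53.3 and 49.9 CPM in WT cells at day 6 and at 0.970 and 0.508 CPM in knockdown cells (interaction -5.21 ± 0.36). Its list was split too, with 4 higher and 4 lower changes among 12 genes tested. GDF15 was at 0.644 and 1.24 CPM in WT cells at day 6 (interaction 4.11 ± 0.51).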

How the data were processed

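RNA from H1 ESCs and their shRNA lines was made into stranded total RNA libraries and sequenced in pairs, with 2 libraries per line at days 2 and 6. The authors mapped the reads to hg19 (GRCh37) with TopHat2 2.0.14, Bowtie2 2.2.1.0 and SAMtools 0.1.19.0, versions as in the submitters' processing notes, and counted them per RefSeq gene region with RSeQC. The deposited table holds these raw read counts, not normalized, per RefSeq accession. Total RNA holds unspliced transcripts, and whether introns were counted is not given in the sources used here.

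Of 41627 accessions, 40285 (96.8%, with 97.1% of counts) were matched to 23189 symbols through a RefSeq gene table of GRCh38.p14, used for names only, and for the 7913 symbols with several accessions the one with the largest total was kept. A further 1077 rows named no accession and held values only in 4 columns of WT and ZEB2 shRNA day 10 libraries, which did not follow the accessions and were not used. GRCh37 coordinates came from the GENCODE annotation.

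Genes were filtered with filterByExpr, normalized by TMM and tested with edgeR 4.0.16 (glmQLFit and glmQLFTest, group as the only term) in R 4.3.3, and p-values were adjusted by the Benjamini-Hochberg method across the genes of each fit. Day 6 was set against day 2 in a fit of the 8 libraries of the line (days 0, 2, 6 and 10), and the interaction with WT cells in a fit of the 16 libraries of days 2 and 6. Genes were called at 8-fold and 1% FDR, the thresholds of the study's methods for day 6, and counted also at 5% FDR. CPM were put on 1 TMM scale over 20 libraries. Where the lower group had no count, folds were computed against a floor of 3 counts per library. Where its libraries together had some counts but at most 3, folds were ratios of counts with a 95% exact interval. Above that, the fitted values were used. An interaction was called determined where each of the 4 groups had more than 3 counts. The scripts were tested on simulated data.

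Named were NKX2-5, the 15 largest rises and falls among called genes whose libraries did not overlap and whose higher mean was at least 5 CPM. Also named were up to 4 members of each list in each direction, members that define a cell type, and the 10 most positive and 10 most negative interactions. The interactions were ranked among called genes with a mean of at least 5 CPM in 1 of the 4 groups. Genes with a symbol starting with LOC were counted but left out of these rankings. Other list members, among them TTN, ALB, APOE, MCM2, GATA1 and WT1, and the interactions of single list members were chosen after their values were seen. Some genes that this rule named are not reported here. The members and the gene lists were chosen with earlier results of these data known. Alternatives were RLE and no scaling, no filter, DESeq2 1.42.0, a replicate block, the first accession of each symbol, other sets of libraries and each library left out in turn. The 6 libraries of days 0, 2 and 6 and the count over determined interactions were added after seeing the data.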

Additional observations from a re-analysis of the deposited data

Results flagged for a closer look

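The change from day 2 to day 6 differed between NKX2-5 shRNA cells and WT cells, by the test of the interaction itself, for 656 genes at 8-fold and 1% FDR, of which 548 had more than 3 counts in each of the 4 groups. The values below are log2 differences between the lines' changes, NKX2-5 shRNA minus WT.

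Of the heart genes described above, the difference was -12.00 for MYH6, -8.07 for MYOCD, -7.80 for RYR2, -7.68 for TBX5, -6.41 for HAND2 and -6.31 for ISL1. For signalling genes it was -5.32 for FGF8 and -5.22 for JAG1, for the interferon-stimulated gene IFIT1 -5.21, and for the cell cycle gene TOP2A -3.06. The lists of cardiac factors, Notch genes and interferon-stimulated genes each held changes in both directions, as counted above. The endoderm factors went both ways, with 4.89 for CDX2 but -3.45 for HHEX and -3.62 for PROX1. Differences above 0 were found for the hepatic genes APOB (4.18) and TF (3.94), for AMN (5.85), PCDH15 (5.89), IL6R (5.39), ALDH1A1 (5.16), CLDN4 (3.27) and GDF15 (4.11). TF, transferrin, had 1.94 and 1.06 CPM at day 6 in the knockdown cells and 0.490 and 0.732 CPM at day 2 and 0.129 and 0.263 CPM at day 6 in WT cells. What underlies these differences was not tested.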

How the results depend on the processing

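Of the called genes from day 2 to day 6, 1601 in all, the count was 1023 to 1166 with 1 of the 4 libraries left out, the lowest without day 2 replicate 1, and 1463 to 1890 under the other alternatives at these thresholds, the highest with the 6 libraries of days 0, 2 and 6 (chosen after seeing the data). With 5% FDR and no fold threshold it was 8476. For the interaction, 656 genes were called, 542 to 794 with 1 library left out, 634 to 712 under other scalings, filters, tools and sets of libraries, and 7988 at 5% FDR with no fold threshold. DESeq2 called 1706 and 698. The median log2 fold change was above 0 for 13 of the 23 lists under each alternative run, but its size moved by more than the spread between replicates for 16 of the 23 under 1 or more alternatives. On log2(CPM + 1), which by construction shrinks changes of low genes, 15 medians moved, each toward 0, that of the sarcomere list to 0.42 and that of the hepatic list to 3.72. Without day 2 replicate 1, 11 moved, among them blood to 2.81 and retinoic acid to -0.68, and with any other library left out 6 to 8. With the 4 libraries of days 2 and 6 alone, 9 moved, among them blood to 2.46 and the epicardial list to 1.84. Among medians closer to 0, that of smooth muscle was 0.27 or 0.85 without day 2 replicate 1 or 2, that of interferon-stimulated genes -0.19 without day 6 replicate 2 and -0.62 without day 2 replicate 2, and that of structured RNAs -0.18 or -0.85 without day 6 replicate 1 or 2.

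The labels give no source that samples of the same number share, and 2 pairs are too few for the data to settle it, so the numbers were not taken to pair the samples. Deviations from the group means of same-numbered samples correlated at -0.0338 between days 2 and 6 of the line, and over the 15 pairings of the 6 groups from -0.0659 to 0.317, the highest between days 0 and 2 of the line. With the replicate block 1463 genes were called from day 2 to day 6 and 646 for the interaction.

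With any 1 of the 4 libraries left out, HAND2, TNNT2, KDR, RNF43, LGR5, NOTUM, NEAT1, FOS and CCNE1 were no longer past 5% FDR, and NKX2-5, ZFP42, ALB, EPCAM and MALAT1 were not without 1 or more of them. KDR was lost also without scaling and with the replicate block, LGR5 with the block, and CCNE1 without the filter. Genes that did not pass the test changed sign under single alternatives. The log2 fold change of ISL1 was 0.019 without the filter and 0.012 with the first accession. With 1 library left out it ranged over -0.11 to 0.11 for ISL1, -1.42 to 0.012 for ACTN2, -0.14 to 0.067 for MCM2, -1.56 to 0.63 for PAX6 and -4.68 to 4.38 for SMOC1. The cause was not tested. With 2 libraries per day, genes near the floor of 3 counts can be sized only as bounds, and exon lengths were not at hand, so the longest accession could not be tried.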
